A study of Mus musculus with 6 samples.

Results

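The Ifi200 genes form a cluster on mouse chromosome 1 and encode interferon-inducible proteins, several of which bind DNA. Of the 8 gene symbols of the family described here (Ifi203, Ifi204, Ifi209, Ifi214, Mnda, Mndal, Pyhin1 and Aim2), 5 had a probe set annotated to that symbol alone, namely Aim2, Ifi204, Ifi209, Ifi214 and Mndal, out of 22180 genes with such a probe set. Ifi203 was covered only by a probe set shared with other genes. Mnda and Pyhin1 are not symbols of the array annotation, and the mouse gene table lists them as synonyms of Ifi211 and Ifi209. That table holds Mndal as a gene of its own and also as a synonym of Ifi203. The family was chosen by the values of 1 member, since Ifi214 had been among the genes called lower in these same arrays. All differences between the groups below therefore describe the contrast that picked the family, and they are not independent evidence about it.

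The samples were 3 spleens of mice overexpressing AIMP2-DX2, a shortened splice form of the tRNA synthetase scaffold AIMP2, and 3 spleens of control littermates, each on 1 Affymetrix array. The DX2 mice had the genotype CAG-rtTA; TRE DX2/+, in which the doxycycline-dependent activator rtTA is driven by the broadly active CAG promoter, and the controls carried TRE DX2 /+ without the activator. All the mice, controls included, had eaten doxycycline (6.25 mg/kg) in their pellets from 8 weeks of age, and were sampled at 1 year. Only DX2 mice carried rtTA, so effects of rtTA and of DX2 cannot be told apart. The labels call the samples biological replicates and do not say more about litters or batches.

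The array medians over 22180 genes lay between 5.42 and 5.46 (log2), and Pearson correlations across genes, which are not independent replicates, were 0.967 to 0.983 among DX2 arrays and 0.986 to 0.988 among control arrays. Transcripts of the sex chromosomes set 2 control arrays apart from the other control array and all DX2 arrays. Xist, the RNA of the inactive X chromosome, read 4.02 to 4.29 in the DX2 spleens and 3.89 in control 3, but 10.9 in control 1 and 10.5 in control 2, while the Y-linked Eif2s3y was low only in those 2 arrays (3.21 and 3.40). This split runs partly along the groups, so the main differences do not fully tell it apart from DX2. Differences against control 3 alone are therefore given for the family genes, and for a gene list where they are far from the main value. The probe set that covers Aimp2 is shared with Eif2ak1, so the induced RNA was not checked here.

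Proteins of this family carry a pyrin domain, through which they assemble with other proteins, a HIN domain that binds DNA, or both. Aim2 is the best-known member: it binds double-stranded DNA in the cytosol and assembles an inflammasome with the adaptor Pycard (ASC) and caspase 1. Most family genes are induced by interferon, and in spleen family members are expressed in lymphocytes as well as in macrophages and dendritic cells.

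The promoters show how closely the copies are related. RefSeq promoter sequences (GRCm38.p6, 250 bases before and 50 after each annotated start) were matched by symbol for 12 of the 14 family genes in the gene table, with Ifi204 and Ifi203-ps unmatched. The pair shown whole below is Ifi214, the member that led to the choice of the family, and Ifi209, whose promoter is the most alike to it. They shared 287 identical bases in an alignment of 300 columns. Capitals mark the interferon-stimulated response element core (GAAANNGAAA) of Ifi214 and the bases that align with it in Ifi209, where the first base differs (G1T, positions counted from 1 at the 5′ end of the core, Ifi214 first).
Ifi214 (chr1:173535908-173536207, minus strand): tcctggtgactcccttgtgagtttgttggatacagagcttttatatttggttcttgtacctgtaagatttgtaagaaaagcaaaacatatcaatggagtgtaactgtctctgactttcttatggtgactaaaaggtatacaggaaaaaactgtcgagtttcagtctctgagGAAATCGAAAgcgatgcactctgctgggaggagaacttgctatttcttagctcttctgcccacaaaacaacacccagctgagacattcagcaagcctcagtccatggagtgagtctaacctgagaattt
Ifi209 (chr1:173630609-173630908, plus strand): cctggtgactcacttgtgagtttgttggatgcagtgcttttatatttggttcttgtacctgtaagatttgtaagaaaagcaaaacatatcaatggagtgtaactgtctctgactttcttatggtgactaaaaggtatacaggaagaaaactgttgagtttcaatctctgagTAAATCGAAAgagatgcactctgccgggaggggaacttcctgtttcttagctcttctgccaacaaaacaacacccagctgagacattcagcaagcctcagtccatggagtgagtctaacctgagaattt

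Of the 12 genes with a promoter sequence 9 held the core on the strand of the gene, with its first base between 35 bases (Ifi203) and 134 bases (Ifi205) before an annotated start. In all, searched on both strands, 10 of 14 family promoters held it, against 3.44% of the 32851 promoters in the table, counted the same way. The 60-base stretches around it are shown because their flanks set the copies apart, again with the core, or in Ifi209 the bases aligned with that of Ifi214, in capitals.
Ifi214 (chr1:173536002-173536061, minus strand): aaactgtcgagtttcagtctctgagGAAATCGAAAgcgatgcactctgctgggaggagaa
Ifi209 (chr1:173630755-173630814, plus strand): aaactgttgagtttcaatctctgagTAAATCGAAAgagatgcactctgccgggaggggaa
Ifi206 (chr1:173491324-173491383, minus strand): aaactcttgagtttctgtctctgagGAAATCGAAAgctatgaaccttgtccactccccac
Ifi213 (chr1:173599311-173599370, minus strand): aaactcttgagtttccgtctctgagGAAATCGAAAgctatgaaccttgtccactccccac
Ifi208 (chr1:173673582-173673641, plus strand): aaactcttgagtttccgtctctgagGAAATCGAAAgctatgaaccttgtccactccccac
Mndal (chr1:173880189-173880248, minus strand): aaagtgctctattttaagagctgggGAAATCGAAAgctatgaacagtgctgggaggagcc
Ifi203 (chr1:173942493-173942552, minus strand): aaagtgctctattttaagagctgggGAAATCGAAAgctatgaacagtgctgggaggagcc
Ifi207 (chr1:173741816-173741875, minus strand): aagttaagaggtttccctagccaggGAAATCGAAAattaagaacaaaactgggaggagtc
Ifi211 (chr1:173913049-173913108, minus strand): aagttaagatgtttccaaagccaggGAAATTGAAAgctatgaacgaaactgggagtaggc
Ifi205 (chr1:174031855-174031914, minus strand): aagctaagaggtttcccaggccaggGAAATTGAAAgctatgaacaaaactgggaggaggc

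The core read GAAATCGAAA in 7 genes and GAAATTGAAA in Ifi211 and Ifi205. Ifi205 held a match on the opposite strand as well, and the second promoter of Mndal held a match on that strand alone. Aim2, Ifi202b and Ifi209 had no match to these letters in the window, which says nothing about the factor. A PU.1 box (GAGGAAGT), searched on both strands, was found in Aim2 alone among the family, against 3.20% of all promoters. The EBF1 motif TCCCNNGGGA was in 0 of 14 family promoters and in 0.904% of all promoters. None of these matches overlapped another.

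By overall likeness the promoters fell into 4 sets, which were drawn after the expression values had been seen. Ifi214 and Ifi209 formed the first. Ifi206, Ifi213 and Ifi208 formed the second, with 263 to 282 identical bases per pair, and Mndal and Ifi203 the third, with 282. Ifi207, Ifi211 and Ifi205 formed the fourth, with 181 to 256. The best alignments of Aim2 and Ifi202b with any other family promoter held 28 and 88 identical bases, where 120 pairs of a family gene and a flanking gene had a median of 16 and at most 40.

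**Figure D1:**
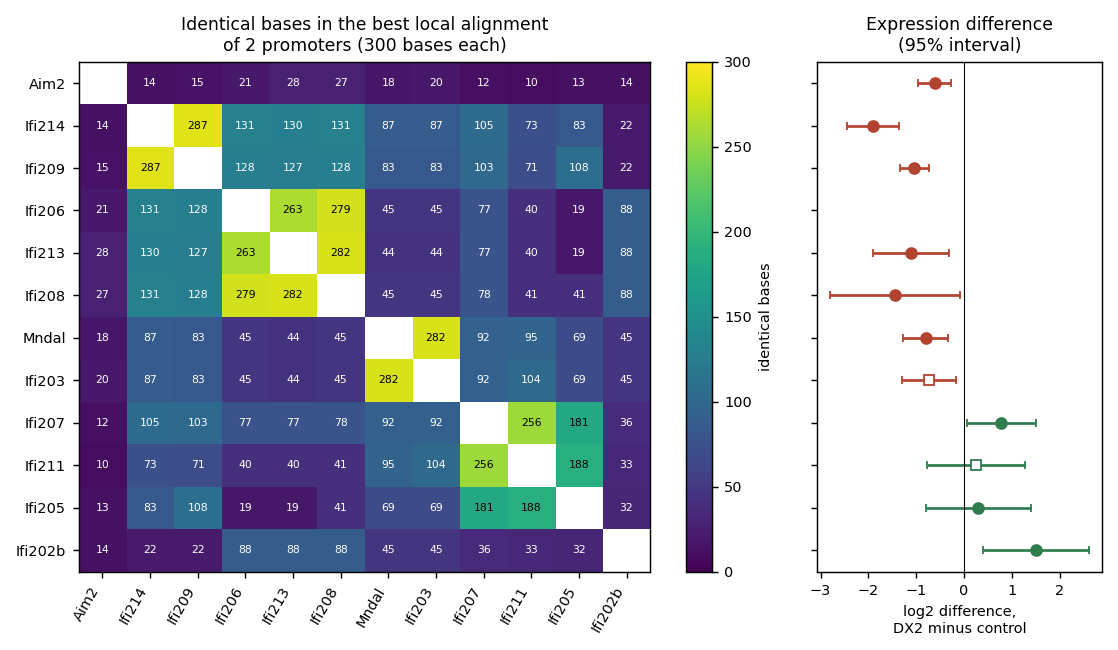
Left, the number of identical bases in the best local alignment of each pair of family promoters of 300 bases, with genes ordered by likeness. Right, the log2 difference of each gene, DX2 minus control, with its 95% interval from limma (open squares stand for probe sets shared between genes; Ifi206 had no named probe set). Ifi214 and Ifi209 share 287 bases and differed by -1.91 and -1.04, while Ifi207, Ifi211 and Ifi205 differed by 0.78, 0.24 and 0.30.

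The family's differences between DX2 and control spleens had both signs. Ifi214, Ifi209, Mndal and Aim2 were lower in every DX2 spleen than in any control spleen, and Ifi204 was higher in every one. Across all 22180 genes, 0.280% were called lower and 0.0361% higher at an adjusted p under 0.05 (limma, Benjamini-Hochberg). Of the 5 members with their own probe set 2 were called lower, Ifi214 and Ifi209, and 0 higher. All DX2 arrays lay below all control arrays for 11.2% of all genes and above them for 10.7%, against 4 and 1 of the 5 members. Since the choice of the family used this contrast, nothing is read from these counts. The whole spleen was measured, so fewer cells of a type and less RNA per cell cannot be told apart.

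Ifi214 read 3.59, 4.07 and 4.40 (log2) in DX2 1, 2 and 3, against 5.65, 5.90 and 6.24 in control 1, 2 and 3. The lowest control value lay above the highest DX2 value by more than the range within either group. The difference of -1.91 (SE 0.23, 95% interval -2.45 to -1.36) is a 3.76-fold lower level, and against control 3 alone it was -2.22. In DX2 spleens the values lay below the median of all genes. The detection floor is unknown, so the fold is uncertain. The values of the genes just inside and just outside the call threshold were -0.97 for Tut4 (adjusted p = 0.0491, limma) and -0.77 for Gm38396 (adjusted p = 0.0511, limma).

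Ifi209, a member with both pyrin and HIN domains that the gene table also lists as Pyhin1, was lower by less and varied little. It read 7.85, 8.06 and 8.01 in DX2 1, 2 and 3, against 9.22, 8.88 and 8.94 in control 1, 2 and 3. The difference of -1.04 (SE 0.13) is a 2.06-fold lower level, with an adjusted p of 0.0387 (limma), and against control 3 alone it was -0.965. The spread within DX2 spleens was 0.206 from lowest to highest, the smallest among the 5 members. Both calls were kept without DX2 2 and lost without any other 1 array, where the adjusted p of Ifi209 was 0.0637 to 0.198 (limma).

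Mndal and Aim2 were lower in all DX2 spleens without passing the test. Mndal, named for its likeness to the myeloid nuclear differentiation antigen, read 7.52, 8.00 and 8.08 in DX2 1, 2 and 3, against 8.87, 8.33 and 8.80 in control 1, 2 and 3. Its difference was -0.80 (SE 0.20, adjusted p = 0.128, limma). The DNA sensor Aim2 read 7.51, 7.99 and 7.84 in DX2 1, 2 and 3, against 8.29, 8.41 and 8.49 in control 1, 2 and 3, a difference of -0.62 (SE 0.15, adjusted p = 0.117, limma). In both genes DX2 1 was the lowest array. Against control 3 alone the differences were -0.935 for Mndal and -0.711 for Aim2.

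Ifi204, studied in mouse as a relative of the human DNA sensor IFI16, was the member that was higher. It read 6.24, 7.49 and 6.99 in DX2 1, 2 and 3, against 5.61, 5.60 and 5.80 in control 1, 2 and 3. The control spleens lay within 0.197 of each other and the DX2 spleens spread over 1.24, with DX2 1 nearest to the controls. The difference of 1.24 (SE 0.28) is a 2.36-fold higher level and did not pass (adjusted p = 0.110, limma), and against control 3 alone it was 1.11. It passed only with array weights, at an adjusted p of 0.0383, and its adjusted p ranged from 0.0383 to 0.709 over the alternatives (limma).

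**Figure D2:**
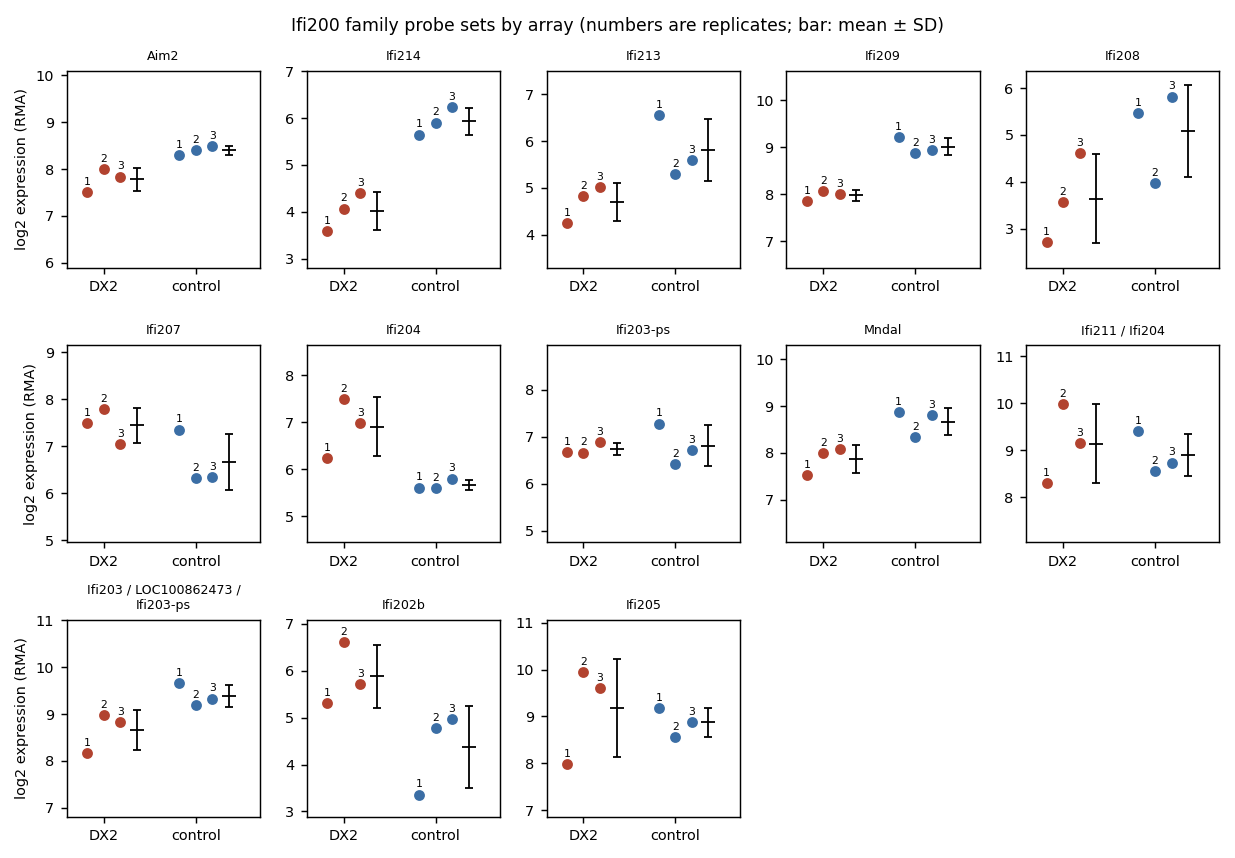
Log2 expression of the 13 probe sets annotated to Ifi200 genes, in gene order, with 1 point per array (DX2 left, control right, numbered by replicate) and the mean ± SD of 3 arrays beside them; every panel spans the same log2 range. Ifi214, Ifi209, Mndal and Aim2 lie lower in every DX2 array than in any control array, Ifi204 and Ifi202b lie higher, and Ifi205 spreads from 7.99 to 9.94 among DX2 arrays.

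The remaining Ifi200 genes, listed for comparison, went both ways as well. Of 8 listed, 6 had their own probe set, and 3 of these were lower and 3 higher in DX2 by their means, 0 of them called by limma. Ifi213 read 4.24, 4.83 and 5.02 in DX2 1, 2 and 3, against 6.56, 5.30 and 5.59 in control 1, 2 and 3, with no overlap between the groups and a difference of -1.12 (SE 0.34, adjusted p = 0.183, limma), or -0.892 against control 3 alone. Ifi208, a member with a pyrin domain, read 2.72, 3.57 and 4.62 in DX2 1, 2 and 3, against 5.47, 3.97 and 5.82 in control 1, 2 and 3. The groups overlapped for Ifi208, and its difference of -1.45 (SE 0.58, adjusted p = 0.287, limma) rests on values near the bottom of the scale. It was -2.18 against control 3 alone and -0.992 without DX2 1. The pseudogene Ifi203-ps differed by -0.06 (SE 0.21), and the sign of that value turned without control 1 (0.17), with array weights, with centred arrays, with a sex term and against control 3 alone.

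Ifi202b, whose protein has HIN domains without a pyrin domain and is known in mouse to hold back Aim2, read 5.30, 6.61 and 5.72 in DX2 1, 2 and 3, against 3.36, 4.78 and 4.97 in control 1, 2 and 3. All DX2 values were higher than all control values, yet control 1 was far below the other controls. The difference was 1.51 (SE 0.48, adjusted p = 0.193, limma), and it was 1.00 without control 1 and 0.912 against control 3 alone. Ifi207 read 7.50, 7.79 and 7.05 in DX2 1, 2 and 3, against 7.36, 6.32 and 6.34 in control 1, 2 and 3, a difference of 0.78 (SE 0.31, adjusted p = 0.284, limma) with overlapping groups, or 1.11 against control 3 alone.

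Ifi205, an interferon-inducible member studied in macrophages, was split among the DX2 spleens. It read 7.99, 9.94 and 9.61 in DX2 1, 2 and 3, against 9.18, 8.56 and 8.89 in control 1, 2 and 3. DX2 1 lay below all controls and the other DX2 spleens above all of them, so the mean difference of 0.30 (SE 0.47, adjusted p = 0.808, limma) summarises opposite values. It was 0.895 without DX2 1, -0.08 without DX2 2 and 0.289 against control 3 alone.

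The shared probe sets cannot be assigned to 1 gene. The one annotated to Ifi203, LOC100862473 and Ifi203-ps read 8.17, 8.98 and 8.82 in DX2 1, 2 and 3, against 9.65, 9.19 and 9.33 in control 1, 2 and 3. All DX2 values were lower, by -0.73 (SE 0.24, adjusted p = 0.213, limma over all 41345 probe sets), with -0.897 without DX2 2, -0.489 without DX2 1 and -0.673 against control 3 alone. The one annotated to Ifi211 and Ifi204 read 8.30, 9.98 and 9.15 in DX2 1, 2 and 3, against 9.40, 8.56 and 8.74 in control 1, 2 and 3. Its difference was 0.24 (SE 0.43), it was -0.178 without DX2 2, 0.662 without DX2 1 and 0.406 against control 3 alone, and the order of its DX2 arrays was that of Ifi204 and Ifi205. Tested over all 41345 probe sets, 0 of the 13 family probe sets passed, with an adjusted p of 0.0685 for Ifi209 (limma). Whether the probes separate these near-identical copies was not tested, since probe sequences were not used here.

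The differences are given here by promoter set, with nothing read from their signs, since the sets were drawn with the values known. In the first set Ifi214 and Ifi209 differed by -1.91 and -1.04, and in the second Ifi213 and Ifi208 by -1.12 and -1.45. In the third set Mndal differed by -0.80 and the shared probe set of Ifi203 by -0.73. In the fourth set Ifi207 differed by 0.78, the shared probe set of Ifi211 by 0.24 and Ifi205 by 0.30, where the last 2 turn negative without DX2 2. Ifi205 is less alike to the others of its set, with 181 and 188 identical bases, and the probe set of Ifi211 is also annotated to Ifi204, which was itself higher. The core was found in genes of every set, though not in Ifi209, and its part in these values was not tested. Copies that are alike in sequence may also share hybridisation to the same probes, whose part in these values was not tested.

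Along the chromosome the lower genes included a run of measured genes. From Aim2 through Ifi214, Ifi213, Ifi209 and Ifi208, all 5 measured neighbours in gene order were lower, by -0.62 to -1.91. Ifi206, which lies between Aim2 and Ifi214, had no named probe set, and the groups overlapped for Ifi208. The next measured genes, Ifi207 and Ifi204, were higher, and both signs occurred from there to Ifi205. The 5 measured genes on either side of the cluster differed by -0.35 to 0.47, and their adjusted p lay between 0.399 and 0.989 (limma). Among them Cadm3, an adhesion molecule next to Aim2, differed by -0.21 (SE 0.11), and Ackr1, the atypical chemokine receptor of red cells and venules, by 0.47 (SE 0.38). The other flanking genes had group means of only 2.45 to 4.01 (log2), below the array medians. The detection floor is unknown, so a lower level of those genes could be hidden.

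**Figure D3:**
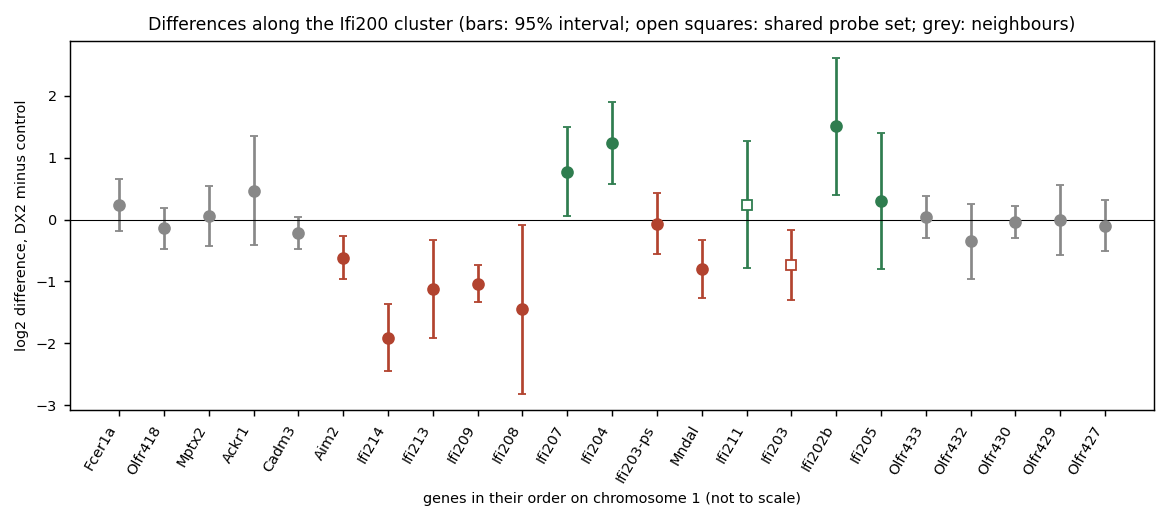
Log2 difference, DX2 minus control, with its 95% interval from limma, for the measured genes of the Ifi200 cluster (red where lower, green where higher) and 5 measured genes on each side (grey), in gene order on chromosome 1; open squares are probe sets shared between genes. The measured genes from Aim2 to Ifi208 lie below 0, and Ifi207, Ifi204 and Ifi202b lie above it. The flanking genes stay between -0.35 and 0.47. Apart from Cadm3 and Ackr1, the flanking genes had low group means of 2.45 to 4.01 (log2).

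The profile closest to Ifi214 over the 6 arrays was that of Cxcr5, the chemokine receptor that guides B cells into follicles. Likeness was the root mean square difference between the 6 log2 values after centring each gene on its own mean. It was 0.207 for Cxcr5, 0.222 for Gm4759, 0.226 for BE692007, 0.262 for Ebf1, a transcription factor of B cell identity, and 0.264 for Gm8369. Cxcr5 read 6.67, 7.21 and 7.51 in DX2 1, 2 and 3, against 8.58, 8.58 and 8.87 in control 1, 2 and 3, so that DX2 1 was the lowest and control 3 the highest array in Ifi214 and Cxcr5 alike. Ebf1, unlike Ifi214, was lowest in DX2 2. Among the family, Ifi209 came nearest to Ifi214 (0.540, place 102 among all genes). Since the difference between the groups enters this distance, genes lower by a like amount lie near Ifi214 by construction.

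For Ifi204 the closest profiles were those of Lap3 (0.152), a leucine aminopeptidase, Fcgr1 (0.183), the high-affinity IgG receptor of monocytes and macrophages, Sdc3 (0.199), a syndecan, Mlkl (0.217), the executor of necroptosis, and P2ry14 (0.219), a receptor for UDP-sugars. Each was highest in DX2 2. Fcgr1 read 7.23, 8.41 and 7.54 in DX2 1, 2 and 3, against 6.77, 6.49 and 6.65 in control 1, 2 and 3. Ifi202b, Ifi205 and Ifi207 stood at 0.508, 0.571 and 0.572 from Ifi204. The distance includes the difference between the groups, so a gene that was lower is far from Ifi204 by construction.

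**Figure D4:**
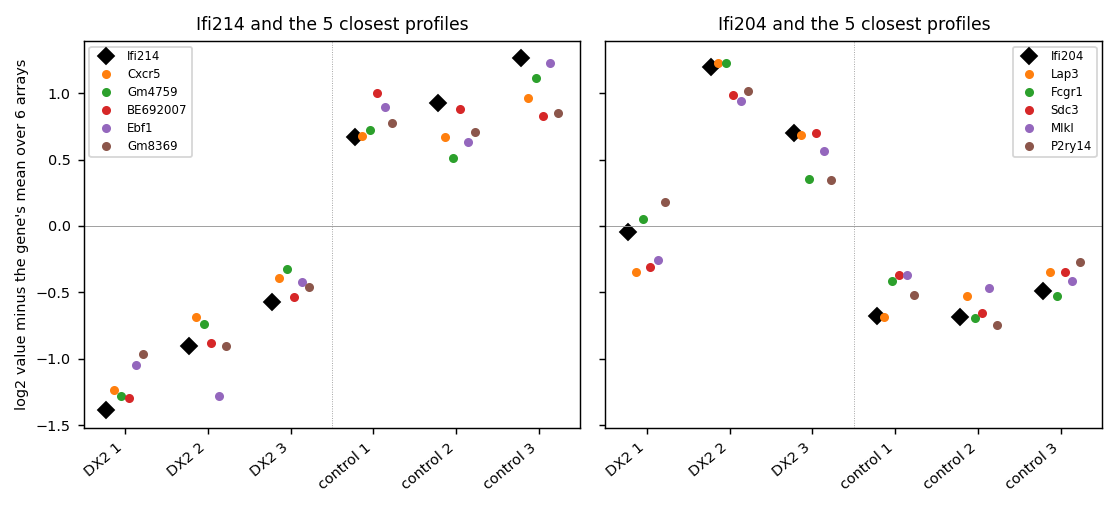
Log2 values of Ifi214 (left) and Ifi204 (right), each as black diamonds, and of the 5 genes with the closest profile to each, after centring every gene on its mean over 6 arrays, by array (DX2 left of the dotted line, control right). Ifi214 and Cxcr5 are lowest in DX2 1, and Ifi204 and its 5 neighbours are highest in DX2 2.

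Cell type markers moved beside the family. All 12 measured B cell markers were lower in DX2, 5 of them called (Cd79b, Fcer2a, Cr2, Cxcr5 and Ebf1), with a median difference of -1.24 against 0.01 over all genes. Averaged over the list, the arrays read 8.06, 8.48 and 8.78 (log2) in DX2 1, 2 and 3, against 9.76 to 10.1 in control spleens. DX2 1 was the lowest array for this list, as it was for Ifi214, Ifi209, Mndal and Aim2. That is not particular to B cells. DX2 1 was also lowest for the T cell, NK cell, plasmacytoid dendritic cell, plasma cell and interferon response lists, among others. Of the called B cell markers, Fcer2a, Cr2 and Ebf1 were lowest in DX2 2 instead. Of 12 red pulp macrophage markers 10 were higher, 1 of them called (Cd5l), with a median of 0.48 and list means of 9.12 to 9.28 in DX2 spleens and 8.51 to 8.75 in control spleens. Of 9 monocyte markers 6 were higher (median 0.18, 0 called), with a median of -0.017 without DX2 1 and 0.462 without DX2 2. Ly6c2, a surface protein of inflammatory monocytes, differed by 0.77 (SE 0.26, adjusted p = 0.222, limma). The monocyte markers that were lower were Ccr2 (-0.14, SE 0.22), Ace (-0.10, SE 0.56) and Lyz2 (-0.04, SE 0.16).

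No gene of the other cell type lists was called. T cell markers were lower in 8 of 8 (median -0.34), but the median was 0.103 without DX2 1, whose list mean was 6.55 against 7.66 to 8.02 in control spleens. Plasmacytoid dendritic cell markers were lower in 4 of 5 (median -0.35, or -0.153 without DX2 1), with Siglech at -0.88 (SE 0.24, adjusted p = 0.150, limma). Of 7 NK cell markers 6 were lower (median -0.22, -0.375 without DX2 2, -0.346 without DX2 1 and -0.092 against control 3 alone). Of 6 plasma cell markers 4 were lower, with medians near 0 (-0.13, and -0.184 to -0.018 with 1 array left out). Of 7 conventional dendritic cell markers 5 were higher (median 0.14, -0.042 without DX2 3, 0.008 without DX2 1 and 0.351 against control 3 alone). Neutrophil markers were higher in 9 of 10 (median 0.51), but the median was -0.014 without DX2 1 and 0.001 against control 3 alone. Erythroid markers were higher in 8 of 8 (median 1.25), with a median of 0.676 without control 1, 0.800 without DX2 1, 1.99 without DX2 2 and 0.751 against control 3 alone. No such marker can be said to be at 0 on this scale, and the part of cell make-up in the family's differences was not tested.

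Interferon response genes, the usual company of this family, followed the order of Ifi205 among the arrays. Of 30 measured genes 22 were higher and 8 lower in DX2, 0 called, with a median of 0.24 that was 0.05 without DX2 2, 0.59 without DX2 1 and 0.37 without control 1. The list mean was 6.90, 7.73 and 7.69 in DX2 1, 2 and 3, against 7.32, 7.06 and 7.10 in control 1, 2 and 3. Isg15, a ubiquitin-like protein, differed by 1.50 (SE 0.24, adjusted p = 0.0638, limma), the RNA sensor Ifih1 by 0.76 (SE 0.15, adjusted p = 0.0930, limma) and Oas3, an oligoadenylate synthetase, by 0.95 (SE 0.25, adjusted p = 0.141, limma). Sp100, a nuclear body protein, differed the other way, by -0.70 (SE 0.24, adjusted p = 0.215, limma). Ifi214, Ifi209, Mndal and Aim2 were lower in every DX2 spleen. This list was lowest in DX2 1, as those genes were, and highest in DX2 2 and DX2 3. The part of interferon in the family's differences was not tested.

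Genes of interferon and DNA sensing pathways went both ways. Of 18 measured genes of interferon receptors and signalling 8 were higher and 10 lower (median -0.05, 0 called), with the kinase Jak1 at -0.28 (SE 0.10, adjusted p = 0.217, limma) and Irf2, a repressor of interferon responses, at -0.36 (SE 0.15, adjusted p = 0.305, limma). Of 26 other genes, in a broad list of DNA sensing and related genes, 11 were higher and 15 lower (median -0.03, 0 called). Cgas, the enzyme that makes cGAMP on binding DNA, read 4.82, 5.08 and 5.10 in DX2 1, 2 and 3, against 4.51, 4.28 and 4.55 in control 1, 2 and 3, a difference of 0.56 (SE 0.13, adjusted p = 0.112, limma) without overlap. Irf7, the interferon regulatory factor that amplifies type I interferon production and is also in the interferon response list, had the largest difference of the DNA sensing list, at 1.07 (SE 0.40, adjusted p = 0.248, limma), with overlapping groups. Sting1, the receptor of cGAMP, differed by -0.30 (SE 0.40, adjusted p = 0.763, limma). Nlrc3, an inhibitor of STING signalling, read 5.31, 5.75 and 5.95 in DX2 1, 2 and 3, against 6.45, 6.45 and 6.67 in control 1, 2 and 3, a difference of -0.85 (SE 0.17, adjusted p = 0.0952, limma).

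A list of inflammasome genes, which holds other sensors such as Nlrp3 and Nlrc4 besides the parts that Aim2 uses, had 9 genes higher and 10 lower of 19 measured, with a median of -0.002 and 0 called. The adaptor of Aim2, Pycard, averaged 7.40 ± 0.32 in DX2 and 7.40 ± 0.20 in control spleens (log2, SD, n = 3 each), and caspase 1 (Casp1) averaged 8.75 ± 0.46 in DX2 and 8.91 ± 0.15 in control spleens. The pore-forming Gsdmd differed by -0.01 (SE 0.17), and the interleukins Il1b and Il18, which caspase 1 matures, by 0.29 (SE 0.48) and 0.36 (SE 0.30). Il1rn, the interleukin 1 receptor antagonist, was the only gene of the list whose groups did not overlap, at 0.59 (SE 0.27, adjusted p = 0.342, limma). Over all genes, DX2 arrays lay wholly below control arrays for 11.2% and wholly above for 10.7%, so nothing is read from this. An adjusted p that misses the threshold does not show that these genes were the same in both groups.

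**Figure D5:**
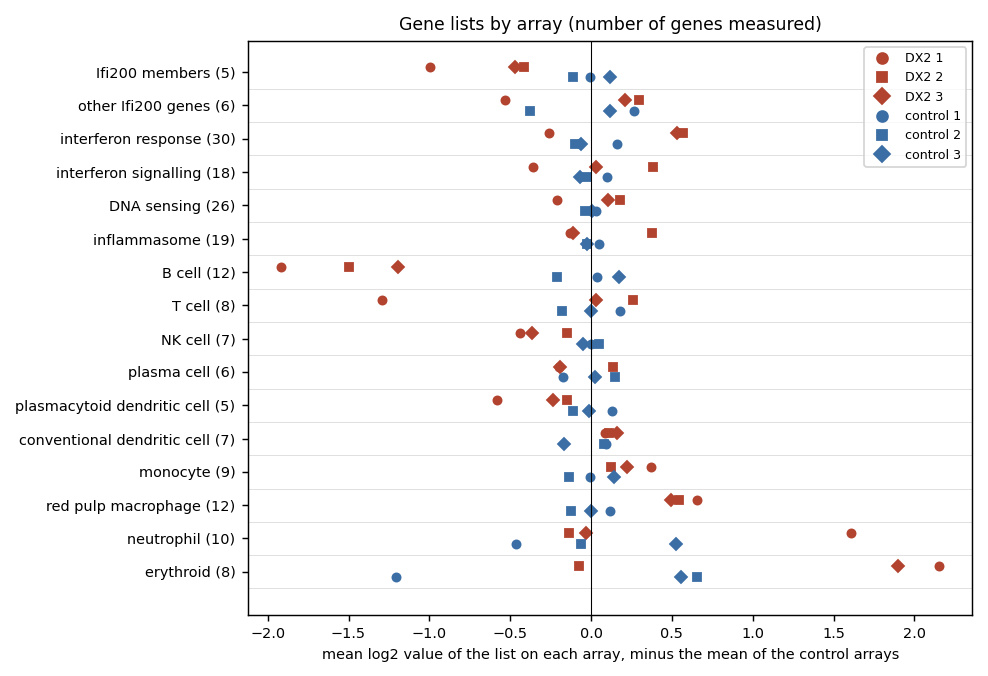
Mean log2 value of each gene list on each array, minus the mean of the 3 control arrays, with the number of measured genes in brackets (red DX2, blue control, the symbol gives the replicate). The B cell list is lower in every DX2 array and the red pulp macrophage list higher, while the interferon response list is higher in DX2 2 and DX2 3 and lower in DX2 1 than in any control array.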

How the data were processed

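The authors deposited 1 table of log2 expression (41345 probe sets, 6 arrays, range 0.771 to 13.3). RMA is the method named per the submitters' processing notes, without a version. The log2 scale was inferred from the range. RMA compresses large differences. Precision is limited by there being 3 arrays a group. By the platform annotation 23521 probe sets had 1 gene symbol, 1814 several and 16010 none. Each of 22180 genes was represented by its probe set of highest mean over the 6 arrays.

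Groups and replicate numbers came from the titles. Control was subtracted from DX2 in an unfiltered limma fit (lmFit, eBayes; version 3.58.1, R 4.3.3) without covariates. Genes with a Benjamini-Hochberg adjusted p under 0.05, over all 22180, were called. The fit was tested on simulated data with known changes.

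Members and gene lists were chosen with earlier results of these data known. Named were all members and other Ifi200 genes, up to 4 genes of smallest p per list, the 5 profiles closest to Ifi214 and to Ifi204, and flanking genes. Tut4, Gm38396 and genes chosen for their known role or size (Irf7, Sting1, Pycard, Casp1, Gsdmd, Il1b and Il18) fall outside that rule. So do Fcer2a, Ccr2, Ace and Lyz2, named to complete counts. All of these were picked after values were seen. The interferon response list shares a few genes with the signalling and DNA sensing lists. Promoters came from RefSeq (GRCm38.p6) and were aligned locally with Biopython 1.88 (match 1, mismatch -1, gap opening -3, extension -1), taking the best pair where a gene has several starts. Another motif was searched and is not reported here. No build is named for the array annotation, so genes are given by order and without coordinates. Alternatives were a replicate block, each array left out, a filter on the 40% dimmest genes, array weights, a mean-variance trend, robust moderation, repeated quantile normalization, centred arrays, averaged probe sets, a sex term, and leaving out the spleens with Xist signal. That last fit has 1 control spleen, whose spread is taken from the DX2 group. Arrays were centred on their medians over all probe sets, which were lower in DX2 arrays.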

Additional observations from a re-analysis of the deposited data

How the results depend on the processing

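Over all genes 70 were called. The count was 1 to 370 with 1 array left out: 1 without control 1, control 2 or DX2 3, 5 without control 3, 8 without DX2 1 and 370 without DX2 2. It was 125 without the dimmest genes, 547 with array weights, 2 with centred arrays, 2 with a sex term and 0 among the spleens without Xist signal. Of the members, 2 were called, and 0 to 2 with 1 array left out (2 without DX2 2, 0 otherwise), 0 with centred arrays, 0 with a sex term and 0 among the spleens without Xist signal. With the replicate number as a block, 1 gene and 0 members were called. Same-numbered arrays did not deviate together (correlations over genes of -0.318, -0.142 and 0.0684), so the numbers are not known to pair the samples, and a call lost under the block is no weaker effect. Leaving out arrays or adding terms leaves fewer samples or degrees of freedom by construction; the cause of the other shifts was not tested. Under all 16 alternatives the sign of Ifi214 (-2.22 to -1.69), Ifi209 (-1.10 to -0.938), Mndal (-0.971 to -0.628), Aim2 (-0.725 to -0.481) and Ifi204 (0.947 to 1.57) stayed the same. The groups of these genes did not overlap, so leaving out arrays could not turn a sign. The replicate block, dim filter, trend, robust moderation and averaged probe sets left their estimates unchanged. The kept signs are therefore little test of these differences. Ifi214 and Ifi209 were each called in 7 of the 16. Ifi203-ps turned positive without control 1 (0.173), with array weights (0.009), with centred arrays (0.028), with a sex term (0.029) and among the spleens without Xist signal (0.029), and Ifi205 negative without DX2 2 (-0.081). With 1 array left out these 2 genes ranged from -0.255 to 0.173 and from -0.081 to 0.895. The floor of detection, unknown here, limits the low values of Ifi214, Ifi213 and Ifi208.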
